A study of Mus musculus with 6 samples.

Results

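The endothelin system of mammary gland macrophages was examined through 6 genes, taken by symbol from a raw count table of 24061 gene symbols. They encode the receptors Ednrb and Ednra, the ligand precursors Edn1 and Edn3, and the converting enzymes Ece1 and Ece2. The group was selected on the Ednrb counts, which differed between the sorted subsets in these same libraries, so the Ednrb difference is a description. Ednrb went through the fit across all genes with the rest, but its passing of that test supports nothing. The other genes were taken in for their place in the pathway. RNA-seq had been performed on 6 libraries of CD45+CD11b+F4/80+ cells sorted by flow cytometry from the #4 (inguinal) mammary glands of untreated nulliparous FVB/N mice, with the lymph nodes removed. There were 3 F4/80+Lyve-1- libraries and 3 F4/80+Lyve-1+ libraries. In each subset, replicate 1 came from mice at 6 weeks of age and replicates 2 and 3 from mice at 10 weeks. Each library was a pool of 4 mice, and nothing states whether the Lyve-1- and Lyve-1+ pools of a number came from the same animals. The comparison asked how the macrophages that carry the hyaluronan receptor Lyve-1 differ from those that do not.

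Endothelins are short peptides that constrict vessels and act on many other cells through G protein-coupled receptors. They are cut from longer precursors, first to a big endothelin and then, by endothelin converting enzymes, to the active peptide. The A receptor (Ednra), best known from smooth muscle and fibroblasts, prefers endothelin-1 over endothelin-3. The B receptor (Ednrb) binds all endothelins alike, drives nitric oxide release in endothelium, clears endothelin-1 from tissue and blood, and with endothelin-3 (Edn3) is needed by neural crest cells that form melanocytes and enteric neurons. In the mammary gland, endothelin receptors have mostly been considered in vessels and myoepithelial cells.

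The coding bases of the mature peptides are printed because they are the stretch of each ligand transcript that gives the receptors their partner. They were read from the GENCODE M21 transcripts on mm10 (plus strand for all 3 genes), at positions 576 to 638 of Edn1-201, 440 to 502 of Edn2-201 and 637 to 699 of Edn3-201. Edn2 is included for comparison as the remaining gene of the family. Capitals mark the 4 cysteine codons, whose disulfide bonds fold the peptide.
Edn1: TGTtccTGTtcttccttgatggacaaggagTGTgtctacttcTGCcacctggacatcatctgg
Edn2: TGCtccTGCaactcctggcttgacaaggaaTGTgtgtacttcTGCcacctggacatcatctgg
Edn3: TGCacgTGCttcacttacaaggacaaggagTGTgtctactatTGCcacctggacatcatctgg
The 63 bases encode 21 residues, the cysteine codons fall at the same places in all 3 genes, and from the last of them to the end the bases are the same. Edn1 and Edn2 shared 53 of the 63 bases and 18 of the 21 residues. Edn1 and Edn3 shared 50 bases and 15 residues.

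Levels are given as CPM, the counts divided by a library size that TMM had adjusted, and comparisons between genes use CPM per kb of exon. The libraries held between 6478007 and 21406839 counts. Olfactory receptor genes, most of which are silent outside the nose, served as a background. The number of olfactory receptor genes with at least 1 count was 4, 34 and 652 in Lyve-1- replicates 1, 2 and 3, and 370, 134 and 5 in Lyve-1+ replicates 1, 2 and 3. Lyve-1- replicate 3, which was also the shallowest library, therefore stood apart, and low counts in it are set beside the count that its olfactory density would give a gene of that length. The cells carried the transcripts of their gate in every library, with Ptprc (CD45) between 645 and 1693 CPM, Itgam (CD11b) between 729 and 1232 CPM and Emr1 (F4/80) between 201 and 390 CPM. Lyve1 lay between 1.43 and 7.44 CPM in the Lyve-1- libraries and between 597 and 2352 CPM in the Lyve-1+ libraries.

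Ednrb was far higher in the F4/80+Lyve-1+ cells than in the F4/80+Lyve-1- cells. The Lyve-1- replicates 1, 2 and 3 had 64.8, 25.1 and 48.7 CPM of Ednrb, and the Lyve-1+ replicates 1, 2 and 3 had 968, 314 and 612 CPM. The lowest Lyve-1+ library was thus well above the highest Lyve-1- library. The raw counts behind these levels were 771, 282 and 334 in the Lyve-1- libraries against 12706, 6557 and 4859 in the Lyve-1+ libraries. The Lyve-1- mean of 46.2 ± 19.98 CPM (SD, n = 3 pools) was 7.31% of the Lyve-1+ mean of 632 ± 327 CPM (SD, n = 3 pools), a ratio of 13.7. The fitted log2 fold change was 3.77, with a standard error (SE) of 0.46. Ednrb (chromosome 14 of mm10, 103814625 to 103844402, minus strand) has 4266 bp of exon, and no other annotated gene overlaps it.

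Ednrb was low but not absent in the F4/80+Lyve-1- cells. It exceeded 58.4% to 78.9% of the 13261 tested genes of known length there, ranked by CPM per kb, and 96.4% to 98.8% of them in the F4/80+Lyve-1+ cells. For Lyve1 itself, the gene of the sort, the Lyve-1- mean was 0.416% of the Lyve-1+ mean. The share left in the Lyve-1- cells was therefore larger for Ednrb than for Lyve1. In bulk RNA, fewer cells that carry a transcript and less of it per cell cannot be told apart.

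The summed markers of the cell types that Ednrb is best known from overlapped between the subsets or were lower in the Lyve-1+ libraries. The 12 blood endothelium markers summed to between 106 and 315 CPM in the Lyve-1- libraries and between 103 and 403 CPM in the Lyve-1+ libraries. The 6 lymphatic endothelium markers, of concern because lymphatic vessels also carry Lyve-1, summed to between 14.6 and 60.2 CPM against between 17.1 and 42.7 CPM. The 60.2 CPM was in Lyve-1- replicate 3, the library with the most olfactory receptor counts. Among the markers, Ccl21a was at 0 in all 6 libraries. Prox1, which defines lymphatic endothelium, had 0, 0 and 45 counts in Lyve-1- replicates 1, 2 and 3. In Lyve-1+ replicates 1, 2 and 3 it had 50, 79 and 7 counts. Mmrn1 had 0, 0 and 80 counts against 67, 83 and 105 counts. Of the 5 tested markers, 3 were fitted higher and 2 lower in the Lyve-1+ cells, and none was called. The 9 Schwann cell and melanocyte markers summed to between 66.1 and 100.3 CPM in the Lyve-1- libraries and to less, between 46.4 and 50.1 CPM, in the Lyve-1+ libraries. Mbp made up most of these sums, with 46.1, 91.95 and 67.6 CPM in Lyve-1- replicates 1, 2 and 3. In Lyve-1+ replicates 1, 2 and 3 it had 36.8, 32.1 and 45.6 CPM. Sox10, which defines those lineages, had 0, 0 and 27 counts in the Lyve-1- libraries and 44, 33 and 0 in the Lyve-1+ libraries. Ngfr had 1, 4 and 49 counts against 70, 263 and 6 counts. Of the 5 tested markers, 2 were fitted higher and 3 lower in the Lyve-1+ cells, and none was called. Other sums did differ between the subsets without overlap. The 11 macrophage markers in the table summed to between 6076 and 9566 CPM in the Lyve-1- libraries and between 10190 and 16010 CPM in the Lyve-1+ libraries. Lyve1, the gene of the sort, and Mrc1 (1364 to 2201 CPM against 3460 to 5742 CPM) made up much of that gap. Of the 11, 9 were fitted higher in the Lyve-1+ cells and 2 lower. The 2 were Ptprc (log2 fold change -0.62), without overlap, and Cd14 (-0.36). The 10 fibroblast markers also summed higher in the Lyve-1+ libraries (between 1560 and 6288 CPM against between 973 and 1127 CPM). Of them, 8 were fitted higher and 2 lower. The 10 conventional dendritic cell markers summed lower (between 399 and 784 CPM against between 928 and 1971 CPM), and all 10 were fitted lower. What part any of these cell types had in the Ednrb difference was not tested.

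**Figure D1:**
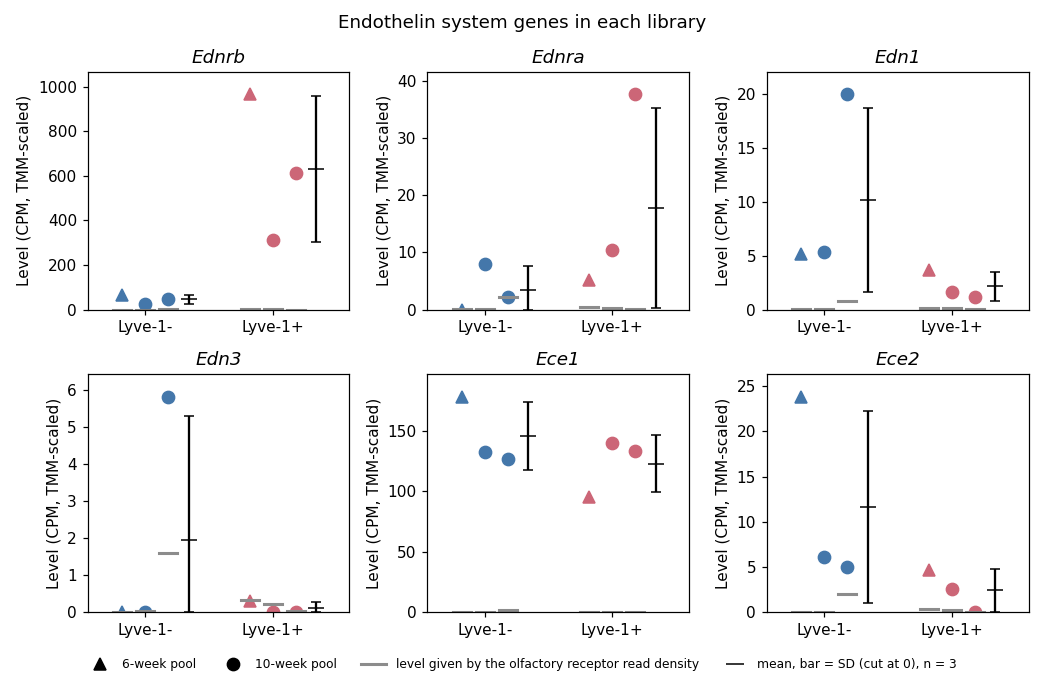
Level of each gene in CPM on a linear axis (6 panels, each with its own scale) for the Lyve-1- libraries in blue and the Lyve-1+ libraries in red. Triangles are the 6-week pools and circles the 10-week pools, black bars give the mean and SD of the 3 pools (cut at 0), and grey dashes the level that the olfactory receptor read density of that library would give. The Lyve-1+ libraries lie at 314 CPM of Ednrb and above, all Lyve-1- libraries at 64.8 CPM and below, and Ednra and Edn3 sit on or near the grey dash in several libraries.

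Ednra was scarce. The Lyve-1- replicates 1, 2 and 3 had 0, 90 and 15 counts, or 0, 7.996 and 2.19 CPM, and the Lyve-1+ replicates 1, 2 and 3 had 68, 216 and 299 counts, or 5.18, 10.35 and 37.7 CPM. The subsets overlapped, since Lyve-1- replicate 2 lay above Lyve-1+ replicate 1, and most of the Lyve-1+ mean came from replicate 3. The 15 counts of Lyve-1- replicate 3 were what its olfactory density gave for a gene of that length (14.5 counts), and the 0 of replicate 1 allows up to 3 counts, or 0.252 CPM, as counting error alone. The means were 3.39 ± 4.13 CPM in the Lyve-1- cells and 17.7 ± 17.5 CPM in the Lyve-1+ cells (SD, n = 3 pools each). The log2 fold change of 2.38 (SE 1.45) did not pass the test (edgeR adjusted p = 0.882). Leaving out Lyve-1+ replicate 3 gave 1.16, and leaving out Lyve-1- replicate 2 gave 4.05.

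Summed markers of fibroblasts, in which Ednra is well known, were highest in the library in which Ednra was highest. The 10 fibroblast markers summed to 6288 CPM in Lyve-1+ replicate 3 and to 2150 and 1560 CPM in Lyve-1+ replicates 1 and 2. In the Lyve-1- libraries they summed to between 973 and 1127 CPM. Col3a1 (3567 CPM) and Col1a1 (1576 CPM) made up most of the sum in Lyve-1+ replicate 3. Pdgfra, Lum, Dcn, Col6a1 and Thy1 were also highest in that library, but Dpt, Pi16 and Fbln1 were not. The 9 markers of pericytes and smooth muscle summed to between 158 and 344 CPM in the Lyve-1- libraries and between 185 and 264 CPM in the Lyve-1+ libraries. What part such cells have in the Ednra counts was not tested. Ednra (chromosome 8, 77663031 to 77724464, minus strand) shares 91 bp of exon with 4933431K23Rik on the other strand, a gene with no row in the table.

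Per kb of exon, Ednrb made up 80.1% to 100% of the receptor transcripts in the Lyve-1- libraries and 95.4% to 99.6% in the Lyve-1+ libraries. The B receptor was therefore the more abundant receptor in all 6 libraries, whatever the subset.

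The ligands were low in either subset, and Edn1 lay the opposite way to Ednrb. Edn1 (chromosome 13, 42301476 to 42307990, plus strand) encodes the precursor of endothelin-1, the vasoconstrictor made by endothelium and also by epithelium and activated myeloid cells. The Lyve-1- replicates 1, 2 and 3 had 5.13, 5.33 and 19.97 CPM of Edn1 (61, 60 and 137 counts), and the Lyve-1+ replicates 1, 2 and 3 had 3.66, 1.63 and 1.13 CPM (48, 34 and 9 counts). The 3 Lyve-1- values exceeded the 3 Lyve-1+ values, but the gap between 5.13 and 3.66 CPM was small beside the spread within the Lyve-1- cells. The means were 10.1 ± 8.51 CPM and 2.14 ± 1.34 CPM (SD, n = 3 pools each), and the log2 fold change of -2.24 (SE 1.55) did not pass the test (edgeR adjusted p = 0.96). Without Lyve-1- replicate 3 it was -1.28. The olfactory density accounted for 5.66 of the 137 counts in that library. Edn1 shares 35 bp of exon with the antisense gene Gm47118, which has no row in the table, and the strand setting of the counting is not given in the sources used here.

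Markers of conventional dendritic cells were also higher in the Lyve-1- libraries. The 10 markers summed to 928, 1482 and 1971 CPM in Lyve-1- replicates 1, 2 and 3 and to 399, 535 and 784 CPM in Lyve-1+ replicates 1, 2 and 3. Within the Lyve-1- libraries, replicate 3 was highest both for these markers and for Edn1, but Edn1 hardly differed between replicates 1 and 2. Ccr7 (139, 458 and 505 CPM) and Ccl22 (139, 387 and 722 CPM) made up most of the rise over Lyve-1- replicates 1, 2 and 3. Within the Lyve-1+ libraries the order of the summed markers was the reverse of that of Edn1. The 12 mammary epithelium markers summed to between 57.9 and 492 CPM against between 86.4 and 139 CPM. Their part in the Edn1 counts was not tested.

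Edn3 could not be tested. It had 0, 0 and 40 counts in Lyve-1- replicates 1, 2 and 3 and 4, 0 and 0 counts in Lyve-1+ replicates 1, 2 and 3, so that it did not pass the filter on low counts. The 40 counts, or 5.83 CPM, fell in the library with the most olfactory receptor counts, whose density gave 10.9 counts for a gene of that length. The 4 counts of Lyve-1+ replicate 1 were matched by an expected 4.18. Edn3 (chromosome 2, 174760619 to 174784042, plus strand) is the partner of Ednrb in neural crest, and a count of 0 in the deepest library, Lyve-1+ replicate 2, allows up to 0.144 CPM. Edn2 (chromosome 4, 120161206 to 120167360, plus strand) likewise had 0, 0 and 5 counts against 3, 0 and 0 counts. No library therefore held a clear level of the precursors of endothelin-2 or endothelin-3, apart from Edn3 in Lyve-1- replicate 3.

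The converting enzyme Ece1 was well expressed in every library. Ece1 is a membrane-bound zinc metalloprotease and the main enzyme for the step from big endothelin-1 to endothelin-1. The Lyve-1- replicates 1, 2 and 3 had 178.5, 133 and 127 CPM of Ece1, and the Lyve-1+ replicates 1, 2 and 3 had 95.7, 140 and 134 CPM. The subsets overlapped, and the lowest and highest values were the 2 pools from 6-week-old mice. The means were 146 ± 28.2 CPM and 123 ± 23.9 CPM (SD, n = 3 pools each), and the log2 fold change of -0.25 (SE 0.30) did not pass the test (edgeR adjusted p = 1.0). In the 10-week libraries alone it was 0.07. Ece1 (chromosome 4, 137862237 to 137965229, plus strand) overlaps the antisense gene Gm13012 outside its exons.

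Ece2, a related protease that works at the acid pH of intracellular compartments and is best known from brain, was much lower. The Lyve-1- replicates 1, 2 and 3 had 23.9, 6.13 and 4.96 CPM of Ece2 (284, 69 and 34 counts), and the Lyve-1+ replicates 1, 2 and 3 had 4.65, 2.54 and 0 CPM (61, 53 and 0 counts). The 3 Lyve-1- values exceeded the 3 Lyve-1+ values, the closest being 4.96 and 4.65 CPM. The 34 counts of Lyve-1- replicate 3 included an expected 13.5 from the olfactory density, and the 0 of Lyve-1+ replicate 3 allows up to 0.378 CPM. The means were 11.65 ± 10.6 CPM and 2.40 ± 2.33 CPM (SD, n = 3 pools each). The log2 fold change of -2.27 (SE 1.65) did not pass the test (edgeR adjusted p = 0.975), and it was -1.22 without Lyve-1- replicate 1. The Ece2 counts are uncertain for a further reason. Of its 5110 bp of exon (chromosome 16, 20629828 to 20646485, plus strand), 2937 bp are shared with the protein-coding gene Gm49333 on the same strand, and reads from either cannot be told apart there.

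Per kb of exon, Ece1 made up 87.8% to 96.1% of the converting enzyme transcripts in the Lyve-1- libraries and 95.2% to 100% in the Lyve-1+ libraries. Ece1 was the most abundant of the 6 genes per kb in all 3 Lyve-1- libraries, and Ednrb in all 3 Lyve-1+ libraries. The ratio of Ednrb to Ece1 per kb was 0.451, 0.234 and 0.477 in Lyve-1- replicates 1, 2 and 3 and 12.6, 2.79 and 5.70 in Lyve-1+ replicates 1, 2 and 3, a range that did not overlap.

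In the Lyve-1- cells the order of mean levels per kb was Ece1 (27.6 ± 5.33 CPM per kb, SD), Ednrb (10.8 ± 4.68), Edn1 (4.74 ± 3.98), Ece2 (2.28 ± 2.07), Ednra (0.620 ± 0.755) and Edn3 (0.473 ± 0.819). Only the step from Ece1 to Ednrb separated all 3 libraries of one gene from those of the next. In the Lyve-1+ cells the order was Ednrb (148 ± 76.7 CPM per kb, SD), Ece1 (23.2 ± 4.51), Ednra (3.24 ± 3.19), Edn1 (1.00 ± 0.625), Ece2 (0.469 ± 0.455) and Edn3 (0.0247 ± 0.0428). There the steps from Ednrb to Ece1 and from Ece1 to Ednra separated the libraries, and the lower genes overlapped their neighbours. The F4/80+Lyve-1+ cells thus held high Ednrb and Ece1 transcripts with little ligand transcript of their own. Ece1 was high and ligand transcript low in the F4/80+Lyve-1- cells as well. Of these traits, only the high Ednrb level, on which the group was selected, was confined to the F4/80+Lyve-1+ cells.

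**Figure D2:**
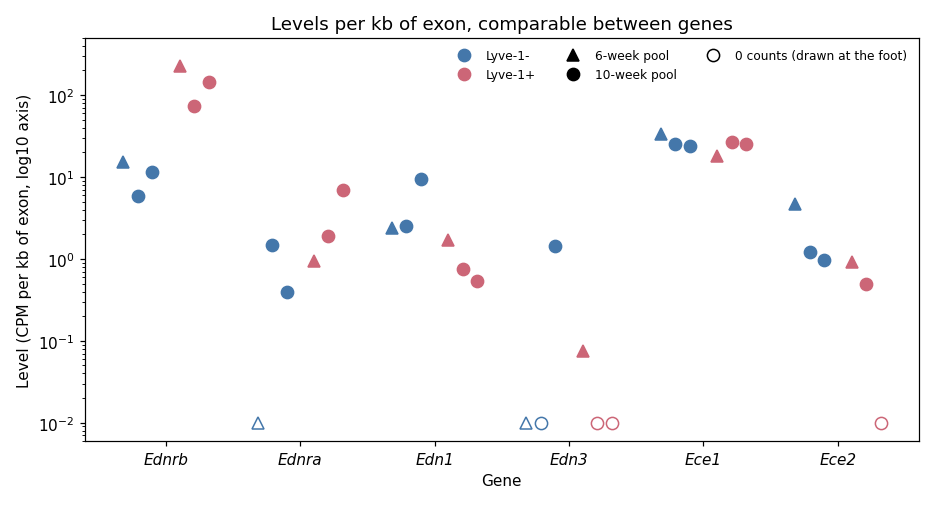
Level of each gene in each library in CPM per kb of exon, on a log10 axis, so that genes can be compared with one another. Blue marks Lyve-1- and red Lyve-1+ libraries, triangles 6-week and circles 10-week pools, and open symbols at the foot mark 0 counts. Ednrb in the Lyve-1+ libraries (73.6 to 227 CPM per kb) is above every other value, Ece1 lies between 18.1 and 33.7 CPM per kb in the 6 libraries, and Edn3 is at 0 in 4 of them.

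Across the whole table, 15 of the 13348 genes tested were called between the subsets (edgeR adjusted p under 0.01 with a log2 fold change beyond 1 and below 10), which is 0.112% of them, with 0.105% higher and 0.00749% lower in the Lyve-1+ cells. Of the 6 endothelin genes, 5 were tested and 1 was called, Ednrb, the gene for which the group was drawn up, so nothing is read from that count. DESeq2 at the same limits called 1.09% of the genes, 0.644% higher and 0.442% lower, and of the endothelin genes again 1, Ednrb. Without Lyve-1- replicate 3, Ednrb was not called and 1 gene was called in all, while the log2 fold change of Ednrb was 3.81. Ednrb, Edn1 and Ece2 had no overlap between the subsets. Over all tested genes, 7.82% lay apart with the Lyve-1+ cells higher and 6.5% with the Lyve-1+ cells lower. These p-values measure the spread between these pools, and a p above the threshold does not show equal levels in Ednra, Edn1, Ece1 and Ece2. Lyve1 itself, the gene of the sort, was not called by edgeR. Its log2 fold change was 7.93 (SE 0.94, edgeR adjusted p = 0.0254, DESeq2 adjusted p = 1.69e-18).

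**Figure D3:**
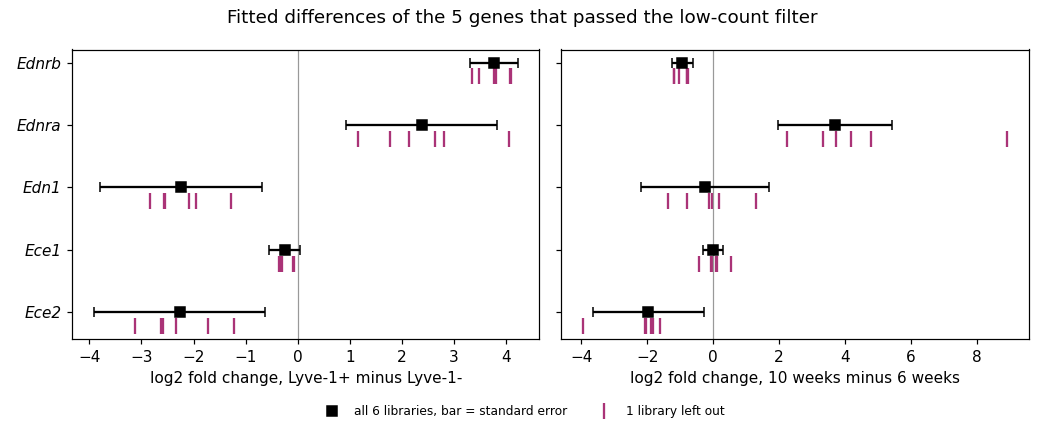
Fitted log2 fold changes of the 5 tested genes, Lyve-1+ minus Lyve-1- on the left and 10 weeks minus 6 weeks on the right. Black squares with bars are the estimates from all 6 libraries with their standard errors, and the purple ticks are the 6 estimates with 1 library left out. The ticks of Ednrb on the left run from 3.34 to 4.10, while those of Ednra run from 1.16 to 4.05 and those of Edn1 from -2.83 to -1.28.

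Libraries at 10 weeks were compared with those at 6 weeks, with a term for the subset, a contrast that had no part in choosing the genes. At the same limits edgeR called 0 of the 13348 genes (0%), DESeq2 called 14, and 444 (3.33%) had an unadjusted edgeR p under 0.05. Ednrb was lower at 10 weeks in the Lyve-1- cells (25.1 and 48.7 CPM against 64.8) and in the Lyve-1+ cells (314 and 612 CPM against 968). The log2 fold change was -0.94 (SE 0.32), which did not pass the test after adjustment (edgeR unadjusted p = 0.00977, adjusted p = 1.0). The subset ratio of Ednrb was 14.9 between the 6-week pools (1 library a subset) and 12.6 between the means of the 10-week pools. The group was selected on that difference in these same libraries, so the ratios describe its size only. For Ednra the log2 fold change of 3.69 (SE 1.73, edgeR adjusted p = 1.0) was 2.23 without Lyve-1- replicate 1, which had 0 counts, and 8.91 without Lyve-1+ replicate 1 (edgeR adjusted p = 0.459), when that 0 was the only 6-week value left. For Ece1 the log2 fold change was 0.00 (SE 0.31), and Ece2 had -1.97 (SE 1.68, edgeR adjusted p = 1.0), or -3.96 without Lyve-1+ replicate 2. Edn1 had -0.25 with an SE of 1.93, which gives no direction. With 1 library a subset at 6 weeks, age and those pools cannot be told apart.

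Endothelin receptors signal through Gq and G11 to phospholipase C-beta, inositol trisphosphate receptors and protein kinase C, and also through Gi and G12/13, and they are switched off by receptor kinases, arrestins and RGS proteins. Of 28 such symbols, 27 were in the table and all 27 passed the filter, the missing one being Grk2, which the table carries under its older symbol Adrbk1. None was called in either direction by edgeR or by DESeq2, 8 had higher and 19 lower fitted levels in the Lyve-1+ cells, and their median log2 fold change was -0.19 beside -0.01 over all tested genes. It was 0.06 in the 10-week libraries alone. At an unadjusted p under 0.05, which 7.69% of all tested genes met, there were 3 of them, Plcb3 and Gna12 higher and Plcb2 lower.

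Phospholipase C-beta isoforms, the enzymes that Gq activates, lay in opposite directions. Plcb3 was at 26.5, 39.4 and 40.5 CPM in Lyve-1- replicates 1, 2 and 3 and at 109, 103 and 95.4 CPM in Lyve-1+ replicates 1, 2 and 3. These libraries did not overlap, as for 7.82% of all tested genes with the Lyve-1+ cells higher. The log2 fold change was 1.53 (SE 0.35, edgeR adjusted p = 0.0725, DESeq2 adjusted p = 0.0109), short of the limit by either tool. Plcb2, the isoform of blood cells, was at 102.5, 57.5 and 83.7 CPM against 13.6, 35.45 and 35.7 CPM, with a log2 fold change of -1.53 (SE 0.45, edgeR adjusted p = 0.225). In the 10-week libraries alone the values were 1.31 for Plcb3 and -0.99 for Plcb2. Gna12, which encodes the G12 alpha subunit, was at 48.2 ± 8.66 CPM against 91.9 ± 7.94 CPM (SD, n = 3 pools each), and its log2 fold change was 0.93 (edgeR adjusted p = 0.406). Gnai2, which encodes the main Gi alpha subunit of leukocytes, was at 1057 ± 237 CPM against 999.5 ± 181 CPM (SD, n = 3 pools each), and its fitted log2 fold change of -0.08 (SE 0.25) gives no direction.

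**Figure D4:**
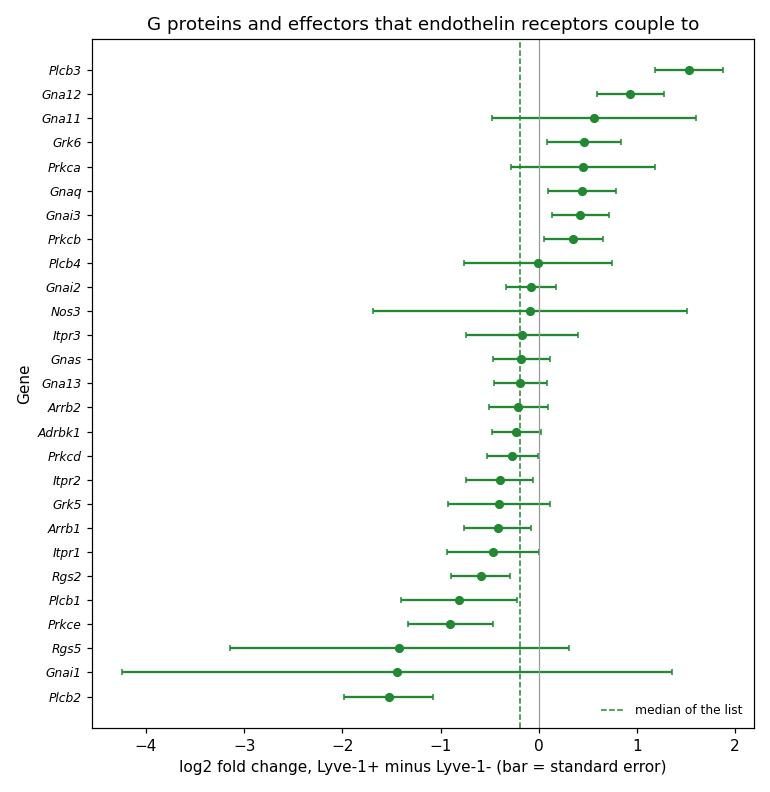
Fitted log2 fold change, Lyve-1+ minus Lyve-1-, of the 27 G proteins, effectors and regulators, with bars for the standard error, sorted by value. The dashed green line is their median of -0.19. Plcb3 and Plcb2 stand at the ends with 1.53 and -1.53, and 19 of the 27 lie below 0.

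Of 8 further ligand and peptide-processing genes, 5 were tested and edgeR and DESeq2 called none, 1 (Cma1) had an unadjusted edgeR p under 0.05, and their median log2 fold change was 0.53, with 4 higher and 1 lower in the Lyve-1+ cells. The sign of that median was not stable, since it was -0.57 without Lyve-1+ replicate 3 and -0.45 with no filter on low counts. Chymases can also cut big endothelin. Cma1, mast cell chymase, was at 6.55, 7.37 and 14.0 CPM in the Lyve-1- replicates 1, 2 and 3 and at 11.7, 54.5 and 42.7 CPM in the Lyve-1+ replicates 1, 2 and 3. The log2 fold change of 1.97 (SE 0.68) did not pass the test (edgeR unadjusted p = 0.0119, adjusted p = 0.358). Mcpt4, another mast cell chymase, had a log2 fold change of 1.54 (SE 1.06, edgeR adjusted p = 0.965), which was 0.14 without Lyve-1+ replicate 2. The 6 mast cell markers, which include these genes, summed to between 39.3 and 82.4 CPM in the Lyve-1- libraries and to 41.5, 242 and 108 CPM in Lyve-1+ replicates 1, 2 and 3. Their part in the chymase counts was not tested. Ctsa, a lysosomal carboxypeptidase that breaks endothelin-1 down, was at 474 ± 102 CPM against 570 ± 103 CPM (SD, n = 3 pools each), with a log2 fold change of 0.27 (SE 0.26, edgeR adjusted p = 1.0).

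The receptors of other vasoactive peptides were examined beside Ednrb. Of 20 genes, all in the table, 11 were tested and edgeR and DESeq2 called none, 1 (Ramp3) had an unadjusted edgeR p under 0.05, and the median log2 fold change was -0.47 (4 higher, 7 lower). The receptor for atrial natriuretic peptide, Npr1, had a log2 fold change of 2.37 (SE 1.14, edgeR adjusted p = 0.727), from 1.09, 27.1 and 8.02 CPM in Lyve-1- replicates 1, 2 and 3 against 141, 29.8 and 17.3 CPM in Lyve-1+ replicates 1, 2 and 3. Without Lyve-1+ replicate 1 it was 0.97. Ramp3, which sets the ligand of the calcitonin receptor-like receptor, was at 28.0 ± 4.72 CPM against 7.82 ± 5.40 CPM (SD, n = 3 pools each), with no overlap and a log2 fold change of -1.83 (SE 0.74, edgeR adjusted p = 0.506). Its partner Calcrl was at 30.4 ± 19.2 CPM against 51.0 ± 16.3 CPM, with a log2 fold change of 0.75 (SE 0.56, edgeR adjusted p = 0.983). Ramp1 and Ramp2, of the same list and named after their values were seen, also had no overlap and lay in opposite directions. Over all tested genes, 7.82% lay apart with the Lyve-1+ cells higher and 6.5% with them lower. Ramp1 was at 18.65, 16.5 and 17.5 CPM in Lyve-1- replicates 1, 2 and 3 against 4.04, 6.95 and 0 CPM in the Lyve-1+ replicates. Ramp2 was low, at 2.69, 4.62 and 2.19 CPM against 8.23, 16.4 and 17.6 CPM. The log2 fold change was -2.25 for Ramp1 (SE 1.3, edgeR adjusted p = 0.846) and 2.15 for Ramp2 (SE 1.17, edgeR adjusted p = 0.793).

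In neural crest cells, Ednrb lies with the transcription factors Sox10, Mitf, Pax3 and Sox9. Of these 4, 3 were tested and edgeR and DESeq2 called none, 0 had an unadjusted edgeR p under 0.05, and the median log2 fold change was 0.10, or -0.60 without Lyve-1- replicate 2. Mitf, which macrophages and osteoclasts also use, was at 55.6 ± 24.6 CPM against 59.9 ± 17.7 CPM (SD, n = 3 pools each), a log2 fold change of 0.10 (SE 0.43, edgeR adjusted p = 1.0). Sox9 was at 14.5 ± 12.5 CPM against 10.4 ± 5.32 CPM, with -0.48 (SE 0.95, edgeR adjusted p = 1.0), and neither has a direction that held when libraries were left out.

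The genes whose levels followed Ednrb most closely over the 6 libraries were found by the Pearson correlation of log2 CPM among 8486 genes with a mean of at least 10 CPM. They were Fam43a (r = 0.995), Fcna (0.993), Hspa5 (0.993), Nr1d1 (0.991) and Sulf2 (0.990). The 6 points share their subset, so that a gene that differs between the subsets in the manner of Ednrb ranks high. None of the 5 was called between the subsets by edgeR (adjusted p between 0.031 and 0.448). The DESeq2 adjusted p was under 0.01 for Fam43a (0.00319), Fcna (1.62e-08), Nr1d1 (0.00897) and Sulf2 (0.000102), and 0.113 for Hspa5. These genes were picked from the same libraries for their likeness to Ednrb, so nothing is read from either test. Their fitted log2 fold changes are given as a description. Fcna, the complement-activating lectin ficolin A, had 5.64 (SE 0.80), and Hspa5, the endoplasmic reticulum chaperone BiP, 0.55 (SE 0.21). Fam43a had 2.19, Nr1d1, a heme-binding repressor of the circadian clock, 1.89, and Sulf2, which removes sulfate groups from heparan sulfate outside the cell, 1.57. Over the same libraries, Lyve1 had r = 0.922 with Ednrb. Among the endothelin genes r was 0.465 for Ednra, -0.676 for Edn1, -0.213 for Edn3, -0.510 for Ece1 and -0.565 for Ece2.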

How the data were processed

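RNA was extracted with RNeasy and sequenced from SMARTer Stranded Total RNA-seq Pico libraries. The reads, paired and of 50 bp, were mapped by the authors with HISAT2 2.0.2 (mm10) and assigned to genes with featureCounts 1.5.0, and the deposited values are raw counts per gene symbol, without normalization. The methods name a removal of genes under 300 bp before testing and of 1 library as an outlier.

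Here, genes passing filterByExpr were normalized by TMM and tested with edgeR 4.0.16 (quasi-likelihood, robust) in R 4.3.3, with Benjamini-Hochberg adjustment over the 13348 genes tested. DESeq2 1.42.0 was an alternative. Standard errors were taken as the log2 fold change over the square root of F. Exon lengths and positions came from GENCODE M21, in which 22749 of the 24061 symbols matched directly and 935 by a RefSeq synonym. Correlations used a prior count of 2. A count of 0 allows up to 3 counts, for counting error only.

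The genes, lists and markers were chosen with earlier results of these data known. All 6 genes are named; from each list, any gene called, or else the 2 with the smallest p and that with the highest mean CPM. Gna12, Ramp1 and Ramp2 were named after their values were seen. Same-numbered libraries did not deviate together (r = -0.0462, -0.00183 and -0.147), so the numbers were not used as a block in the main test. The tests were checked on simulated counts.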

Additional observations from a re-analysis of the deposited data

How the results depend on the processing

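Ednrb kept its direction under all 15 alternatives, with log2 fold changes of 3.34 to 4.10 with 1 library left out and of 3.66 to 3.76 under the others. The group was selected on that difference in these libraries, whose Ednrb values did not overlap. The kept direction therefore supports nothing, and the ranges describe the size only. Ednra, Edn1 and Ece2 kept their direction and did not pass the test in any alternative that gave an adjusted p. DESeq2 gave none for Edn1 and Ece2. With at least 10 counts in every library, Ednra, Edn1 and Ece2 could not be tested. The number of genes called between the subsets was 15. It was 145 with DESeq2, 188 with no filter on low counts, 32 with at least 10 counts in every library and 58 with age as a covariate. It ranged from 1 to 81 with 1 library left out, the lowest without Lyve-1- replicate 3. With the replicate number as a block it was 140, and the block changed no call of an endothelin gene. No library correlated best with its own number. The number called for age was 0, with DESeq2 14, with no filter 12, and between 0 and 20 with 1 library left out. The cause of these changes was not tested.

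Among single genes, the directions that reversed were of differences that did not pass the test. In the 10-week libraries alone the log2 fold change between the subsets was 0.07 for Ece1, 0.06 for Gnai2 and 0.59 for Sox9. With 1 library left out, Gnai2 ran from -0.22 to 0.10, Mitf from -0.18 to 0.45 and Sox9 from -1.0 to 0.41, and the age difference of Edn1 from -1.38 to 1.31. Over all alternatives, the list medians also changed sign, from -0.57 to 1.69 for ligands and peptide enzymes, from -0.28 to 0.06 for G proteins and effectors and from -0.60 to 0.32 for the neural crest factors, but not for the other vasoactive receptors (-1.11 to -0.11). There were 3 pools a subset and 6478007 counts in the shallowest library. Edn3 outside Lyve-1- replicate 3, and Ednra in Lyve-1- replicates 1 and 3, lay near the background. Ednra in Lyve-1- replicate 2 did not, with 90 counts against an expected 0.51.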
